A study of Mus musculus with 22 samples.

Results

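The 10 genes taken here from the smooth muscle contractile apparatus were Acta2, Tagln, Cnn1, Myh11, Myl9, Des, Lmod1, Smtn, Cald1 and Tpm2, and their levels were measured by RNA-seq in C3H 10T1/2 cells, a mouse mesenchymal cell line. They were chosen by name from a table of 30170 genes, of which 14520 passed a filter on low counts, and all 10 passed it. The cell lines were generated to express DNMT3A1, the long isoform of the de novo DNA methyltransferase DNMT3A, as WT, as W330R (a substitution in its PWWP domain, which binds methylated histone H3) or as the double mutant W330R-R181E. WT and W330R were sequenced undifferentiated and after 2, 4 and 6 days of adipocyte differentiation, and W330R-R181E after 2, 4 and 6 days. This gave 11 conditions with 2 libraries each, 22 in all. Every group shared the C3H 10T1/2 background and 10% fetal bovine serum. Differentiating cells received isobutylmethylxanthine, dexamethasone, insulin and troglitazone for 2 days, and insulin alone thereafter. The labels do not say whether a genotype was 1 clone or a pool, or whether replicates were separate cultures, so that p-values measure only the spread between these samples, which may be technical. Genotype and cell line cannot be told apart. The undifferentiated columns are named by another pattern than those of days 2 to 6, so that a batch and the step from undifferentiated cells to day 2 cannot be told apart either. The double mutant is R181E in the labels and R181A in the column names.

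Smooth muscle contracts when myosin thick filaments pull on actin thin filaments. Phosphorylation of the myosin light chain starts the cycle, and tropomyosin, caldesmon and calponin regulate it along the thin filament. Most of these genes are controlled by serum response factor (Srf), which binds the CArG box in DNA and is helped by myocardin (Myocd) or by the myocardin-related factors Mkl1 and Mkl2. Mesenchymal cells such as C3H 10T1/2 can enter a smooth muscle or an adipocyte fate, and several of the 10 genes are also used by fibroblasts, which build contractile stress fibres.

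Each library held 8859501 to 47453908 reads counted on genes (median 19355792). Levels are given as CPM, read counts scaled to a common library size after TMM normalization, and 3 counts in a library, taken as the smallest value the depth can show, corresponded to 0.0583 to 0.347 CPM. Such floors cover counting error only. A gene was called when edgeR's quasi-likelihood test gave a Benjamini-Hochberg adjusted p under 0.05 over the 14520 genes, and log2 fold changes are given with their standard errors. The replicate pairs of undifferentiated cells differed far less than later ones, with a chi-square per degree of freedom across genes of 3.1 and 3.4 against 29.3 to 103.4 on days 2 to 6. All conditions shared 1 estimate of the spread. Counts on Dnmt3a ranged from 68.5 to 346.5 CPM and do not separate the introduced from the endogenous gene, nor the mutant from the WT sequence. Undifferentiated cells held 346.5 and 344.5 CPM in WT and 325.9 and 316.5 in W330R. On day 2 WT held 175.1 and 321.8 CPM, above W330R at 88.4 and 142.3 and W330R-R181E at 77.3 and 147.8. On days 4 and 6 both mutants overlapped with WT. The part of the Dnmt3a level in the genotype differences was not tested.

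The 10 genes spanned a wide range of levels, with Acta2 and Cald1 at the top and Cnn1 and Myh11 at the bottom. Acta2, smooth muscle α-actin, ranged from 8.07 to 1239.5 CPM (median 355), and Cald1, caldesmon, from 124.1 to 1448.3 CPM (median 443.4). Smtn, smoothelin, lay between 27.9 and 116.4 CPM, and Tpm2, β-tropomyosin, between 3.66 and 118.5 CPM. Myl9, the regulatory myosin light chain, reached 91.4 CPM, Lmod1, the actin filament nucleator leiomodin, 27.4 CPM, and Des, the intermediate filament protein desmin, 14.3 CPM. Tagln, which encodes the actin-binding protein transgelin, stayed between 0.925 and 7.11 CPM. Cnn1, calponin, did not exceed 1.19 CPM and was at or under 3 counts in 10 libraries. Myh11, the smooth muscle myosin heavy chain, did not exceed 3.53 CPM and was at 0 in 7 libraries. Myh11 and Cnn1, the markers by which mature smooth muscle is usually defined, were thus at 0 in undifferentiated cells and low later, and Myocd stayed at or under 1.6 CPM. The levels describe contractile genes within a mesenchymal and adipogenic culture, and whether it held smooth muscle cells was not tested.

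**Figure D1:**
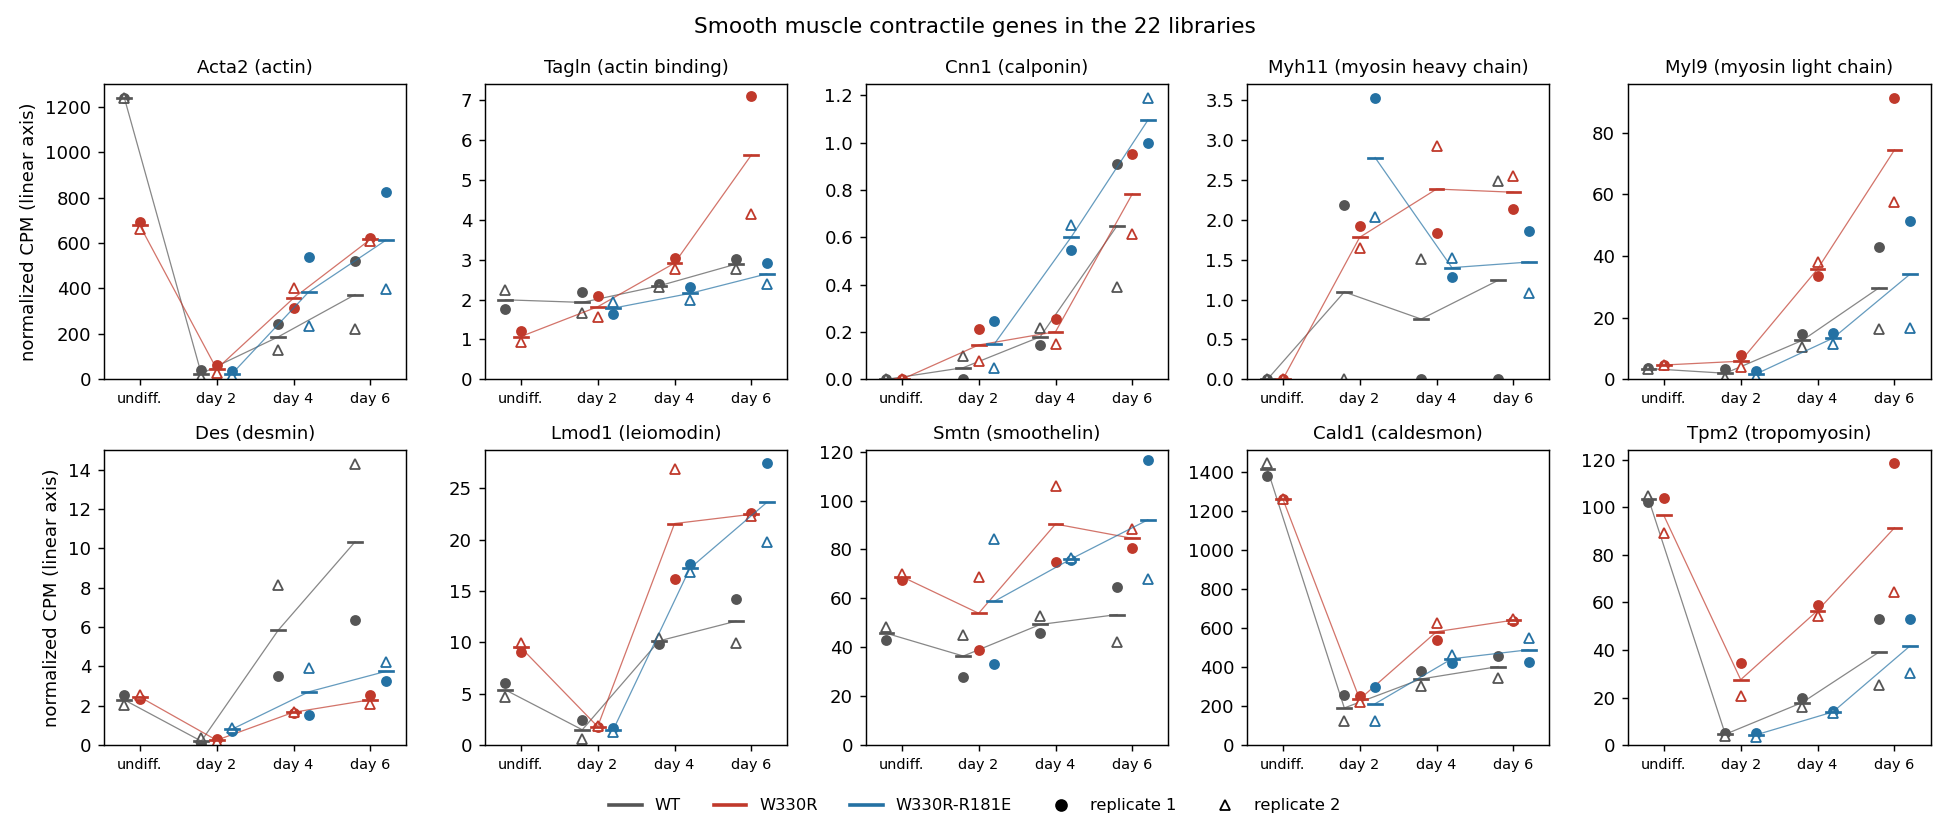
Normalized CPM (linear axis, separate for each gene) of the 10 contractile genes in the 22 libraries, by stage. Circles are replicate 1, triangles replicate 2, horizontal bars the mean of the 2 libraries, thin lines join the means of a genotype, and colours are the genotypes. Acta2 and Cald1 were highest in undifferentiated WT cells, Acta2, Cald1 and Tpm2 were lowest on day 2, Tpm2 was higher in W330R from day 2 on, and Des was highest in WT on day 6.

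Per kilobase of merged exons (GENCODE M21), which allows levels to be compared between genes, Acta2 stood first in undifferentiated WT cells at 564 CPM per kilobase, followed by Cald1 at 117, Tpm2 at 35.6, Smtn at 10.5, Myl9 at 3.01 and Lmod1 at 1.36. On this scale Tagln was at 1 and Des at 0.613 CPM per kilobase in these cells, and the libraries of neighbours in this order did not overlap, the closest being Lmod1 at 1.19 to 1.54 and Tagln at 0.885 to 1.12. On day 6 the WT order was Acta2 at 170, Cald1 at 33.5, Myl9 at 25.6, Tpm2 at 13.4 and Smtn at 12.2 CPM per kilobase. Here the libraries of Cald1 and Myl9 overlapped, as did those of Myl9, Tpm2 and Smtn. Myl9 thus moved from the fifth place to the third. Merged exons can be longer than the transcripts in use, most of all for Cald1 with 12041 bases of them.

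From undifferentiated cells to day 2, edgeR called 5 of the 10 genes lower in both WT and W330R, and none higher. DESeq2 called a sixth gene, Myh11, higher in both (adjusted p = 0.013 in WT and 0.012 in W330R), as did edgeR with no filter on low counts (adjusted p = 0.029 and 0.023). On day 2 Myh11 held 29 and 0 counts in WT and 36 and 43 in W330R, so that the WT call rests on a single library. The 5 lower genes were Acta2, Tpm2, Cald1, Des and Lmod1. In all genes tested, 24.4% were lower and 26.5% higher in WT, and 23% lower and 25.1% higher in W330R. The median log2 change of the 10 genes was -1.41 in WT and -1.08 in W330R, beside 0.06 and 0.08 over all genes. These medians hold Cnn1 and Myh11, which were at 0 in undifferentiated cells, as higher on day 2. From day 2 to day 6 most of the genes rose, whether or not they had fallen before: 7 were higher in WT, 8 in W330R and 7 in W330R-R181E, and none was lower. The background was 14.8% higher and 11.8% lower in WT, 13.6% and 11.3% in W330R, and 12.9% and 10.3% in W330R-R181E. The median change was 3.08, 2.10 and 2.58 on the log2 scale, beside 0.02, 0.01 and 0.00 (-0.005) over all genes.

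**Figure D2:**
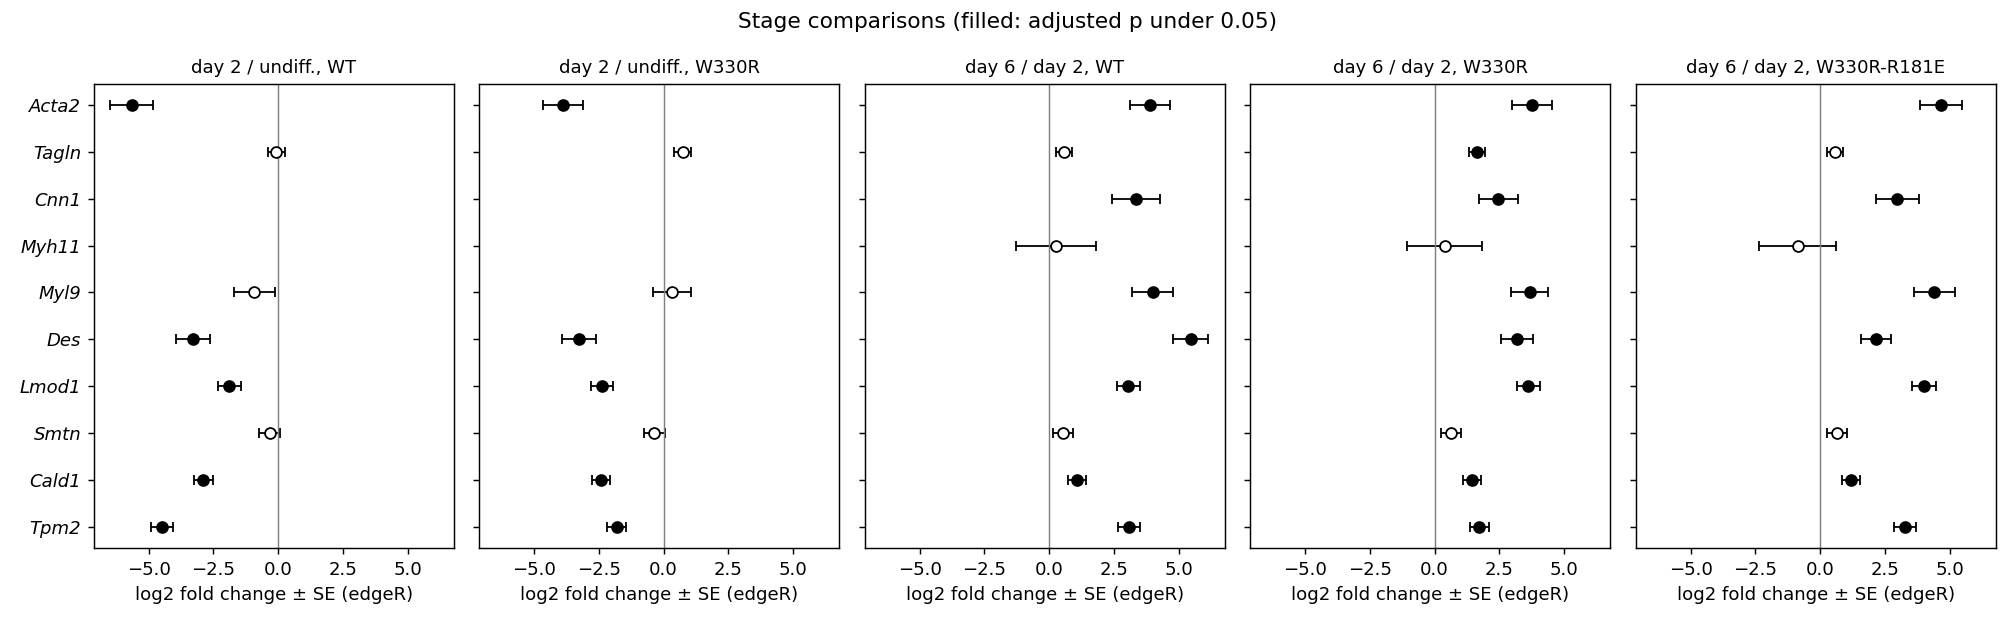
Log2 fold change (points, with bars of 1 standard error) of the 10 genes between stages within a genotype, from the edgeR fit of all 22 libraries. Filled points passed an adjusted p of 0.05, and Cnn1 and Myh11 are left out of the first 2 panels because they were at 0 in undifferentiated cells. The Cnn1 points of the other panels rest on 0 to 4 counts per day 2 library. Acta2 fell by 5.64 in WT on day 2 and rose by 3.91 from day 2 to day 6.

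Acta2 fell the furthest. Undifferentiated WT cells held 1239.5 and 1235.9 CPM and W330R cells 692.4 and 662.1 CPM. On day 2 the levels were 41.8 and 8.07 CPM in WT, 64.2 and 27 in W330R and 35 and 13.6 in W330R-R181E. All undifferentiated libraries lay above all day 2 libraries, and the day 2 pairs were wide apart. The log2 change was -5.64 ± 0.835 in WT (adjusted p = 7.5e-05, edgeR) and -3.90 ± 0.766 in W330R (adjusted p = 0.00086). By day 6 Acta2 stood at 521.9 and 223 CPM in WT, 621.9 and 609.9 in W330R and 825.7 and 397.6 in W330R-R181E, again above every day 2 library. Day 4 lay between, at 244.2 and 129.1 CPM in WT, 312.4 and 401.8 in W330R and 537.5 and 233.4 in W330R-R181E. From day 2 the rise was 3.91 ± 0.771 in WT, 3.76 ± 0.761 in W330R and 4.67 ± 0.798 in W330R-R181E on the log2 scale.

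The promoters of Acta2 and Myl9 are shown because they were the only ones of the members with a window that hold a stretch of the CArG type. RefSeq windows of 300 bases around the start (GRCm38.p6) matched 8 of the 10 members, Tagln and Myh11 not among them. The motifs searched, on both strands, were the CArG box (CC, 6 bases of A or T, GG), CATTCC, the MCAT element bound by TEAD factors, and CANNTG, the E-box. In the 250 bases before the start, capitals mark CATTCC (or its reverse complement) and CArG boxes with at most 1 other base in the core. Acta2 lies at chr19:34255374-34255623 (minus strand), Myl9 at chr2:156775214-156775463 (plus) and Lmod1, shown for its CATTCC match, at chr1:135324563-135324812 (plus).
Acta2: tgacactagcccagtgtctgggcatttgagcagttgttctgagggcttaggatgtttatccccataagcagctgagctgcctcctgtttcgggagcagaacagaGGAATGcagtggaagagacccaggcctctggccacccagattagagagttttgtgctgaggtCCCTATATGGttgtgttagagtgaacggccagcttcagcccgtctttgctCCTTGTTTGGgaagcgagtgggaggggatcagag
Myl9: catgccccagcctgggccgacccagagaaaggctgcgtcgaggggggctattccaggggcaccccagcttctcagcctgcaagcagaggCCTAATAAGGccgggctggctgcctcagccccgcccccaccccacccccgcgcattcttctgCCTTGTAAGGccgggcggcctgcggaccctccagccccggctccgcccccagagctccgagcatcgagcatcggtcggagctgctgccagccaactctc
Lmod1: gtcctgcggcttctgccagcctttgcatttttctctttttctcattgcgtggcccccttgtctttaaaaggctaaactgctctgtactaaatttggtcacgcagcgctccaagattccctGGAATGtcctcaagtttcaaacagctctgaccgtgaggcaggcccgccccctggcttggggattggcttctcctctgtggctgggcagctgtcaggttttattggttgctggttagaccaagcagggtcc
Acta2 holds CCCTATATGG and CCTTGTTTGG, each with 1 other base in the core, and Myl9 holds the CArG box CCTAATAAGG and the near match CCTTGTAAGG. Over the 300-base windows, the strict CArG box was found in 1 of 8 members and in 1.63% of 32851 windows, and the form with at most 1 other base in 2 members and in 9.98% of windows. CATTCC was found in Acta2, Lmod1, Smtn and Cald1, 4 of 8, and in 14.7% of windows. CANNTG was found in all 8 and in 72.3% of windows. The CArG and CATTCC stretches do not overlap each other in these sequences. A match is a description of the letters, and no binding was measured.

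Myl9, in contrast to Acta2, was not called between undifferentiated cells and day 2. Its level was 3.52 and 3.47 CPM in undifferentiated WT and 4.65 and 4.63 CPM in undifferentiated W330R. On day 2 it was 3.4 and 0.541 CPM in WT, 7.91 and 3.84 in W330R and 2.71 and 0.743 in W330R-R181E. The WT day 2 pair thus ran from the undifferentiated level to far below it, and the change from undifferentiated cells was -0.92 ± 0.792 in WT (adjusted p = 0.35, edgeR) and 0.33 ± 0.724 in W330R (adjusted p = 0.73). By day 6 Myl9 reached 43 and 16.4 CPM in WT, 91.4 and 57.4 in W330R and 51.4 and 16.7 in W330R-R181E, all above its undifferentiated level. The rise from day 2 was 16-fold in WT (adjusted p = 0.0022, and 3.13 to 5.76 on the log2 scale with 1 library left out) and, on the log2 scale, 3.67 ± 0.723 in W330R and 4.41 ± 0.8 in W330R-R181E.

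Cald1, the thin filament regulator, and Lmod1 fell and recovered to different extents. Cald1 went from 1377.8 and 1448.3 CPM in undifferentiated WT to 255.8 and 126.4 CPM on day 2 and 459 and 346.9 CPM on day 6. On day 6 it thus remained below the undifferentiated cells in both WT libraries, and its rise of 1.08 ± 0.348 (log2) in WT was the smallest among the genes called there. Lmod1 went from 6.08 and 4.68 CPM to 2.42 and 0.59 CPM and then to 14.2 and 9.92 CPM in the same order. Both day 6 libraries of Lmod1 lay above the undifferentiated pair. In W330R, Cald1 was at 1260.5 and 1263.3 CPM, then 252.5 and 219.5 on day 2 and 634.2 and 647.7 on day 6. Its day 4 libraries were at 378.1 and 301 CPM in WT, 536.9 and 626.7 in W330R and 423.4 and 462.7 in W330R-R181E. W330R-R181E held 300.9 and 124.1 CPM of Cald1 on day 2 and 427.9 and 550.7 CPM on day 6. W330R thus lay above WT in Cald1 on days 4 and 6, and the day 2 pairs overlapped. Lmod1 was at 9.06 and 9.95 CPM in undifferentiated W330R, 1.76 and 1.87 CPM on day 2 and 22.6 and 22.3 CPM on day 6. In W330R-R181E it was at 1.64 and 1.29 CPM on day 2 and 27.4 and 19.8 CPM on day 6. Both mutants thus lay above WT in Lmod1 on day 6.

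Cnn1, Tagln and Smtn did not pass the test from undifferentiated cells to day 2. Cnn1 was at 0 counts in all 4 undifferentiated libraries, where 3 counts allow at most 0.347 CPM, and held 0 to 4 counts in each day 2 library. On day 6 it held 16 and 8 counts in WT, 49 and 15 in W330R and 43 and 11 in W330R-R181E. The difference was called in all 3 genotypes, and no fold is given against so few counts. Tagln rose in W330R by 1.63 ± 0.306 on the log2 scale from day 2 to day 6 (adjusted p = 0.0019, edgeR), from 2.08 and 1.56 CPM to 7.11 and 4.15 CPM. In WT its change was 0.58 ± 0.309 (adjusted p = 0.18) and in W330R-R181E 0.57 ± 0.311 (adjusted p = 0.2). On day 6 Tagln held 3.01 and 2.77 CPM in WT and 2.91 and 2.38 CPM in W330R-R181E, below both W330R libraries. Its undifferentiated libraries were at 1.76 and 2.23 CPM in WT and 1.22 and 0.925 CPM in W330R, without overlap. Its other libraries of days 2 and 4 lay between 1.56 and 3.05 CPM. Smtn, which binds actin in stress fibres, was at 43 and 48.5 CPM in undifferentiated WT and 67.7 and 70.1 CPM in undifferentiated W330R. On day 2 it was at 27.9 and 45 CPM in WT, 39 and 68.9 in W330R and 33.4 and 84.1 in W330R-R181E, all overlapping. On day 6 it was at 64.7 and 42.1 CPM in WT, 80.6 and 88.5 in W330R and 116.4 and 67.8 in W330R-R181E, both mutants above WT. Smtn passed the test in neither step in any genotype, with log2 changes of -0.33 and -0.35 to day 2 and of 0.55 to 0.65 from day 2 to day 6.

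Some of these counts are uncertain because of shared sequence. In GENCODE M21, 58.3% of the 50-base stretches of Tagln transcripts also occur in transcripts of Pcsk7 or Gm48529, which lie on the opposite strand, and neither the strand of the library nor its use in counting is stated. Pcsk7 ranged from 0 to 15.4 CPM. The share was 9.46% for Smtn, 4.61% for Des and at most 0.34% for the other 7. Myh11 shared 0.34% with Myh9 and Myh10, which reached 2777.5 and 618 CPM. Within WT, Myh11 was at 29 and 0 counts on day 2, 0 and 28 on day 4 and 0 and 51 on day 6, whereas every W330R and W330R-R181E library of days 2 to 6 held at least 10 counts. Myh11 was called in no comparison by edgeR with the filter on low counts, and from undifferentiated cells to day 2 it was called higher by DESeq2 and by edgeR without that filter, as given above, and in W330R also by a fit of those conditions alone (adjusted p = 0.0044).

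The step called for each gene depended on single libraries in some cases. With 1 library left out, the fall to day 2 was kept by all 5 genes in both genotypes. Acta2, Myl9, Lmod1 and, in W330R, Tagln kept the rise from day 2 to day 6 in every such fit, but several sizes moved by more than 1.5-fold. In WT, the rise to day 6 without day 2 replicate 1 or replicate 2 was 5.53 or 3.17 on the log2 scale for Acta2, 5.76 or 3.13 for Myl9 and 4.33 or 2.32 for Lmod1, and without day 6 replicate 1 it was 3.18 for Acta2, 3.15 for Myl9 and 2.46 for Tpm2. Des in WT rose by 4.88 or 6.99 without those day 2 libraries and by 4.78 without day 6 replicate 2. The fall to day 2 in WT without the same 2 day 2 libraries was -7.25 or -4.90 for Acta2, -2.70 or -4.83 for Des and -3.16 or -1.16 for Lmod1. Without day 2 replicate 1, Cald1 in WT fell by 3.47 and then rose by 1.67 on the log2 scale. In W330R, leaving out day 2 replicate 1 gave -4.64 and 4.51 for the fall and rise of Acta2 and 4.27 for the rise of Myl9. In W330R-R181E, without day 2 replicate 1 or day 6 replicate 1 the rise was 5.49 or 4.04 for Acta2 and 5.52 or 3.36 for Myl9, that of Myl9 was 3.69 without day 2 replicate 2, and that of Cald1 was 1.98 without day 2 replicate 1. Cald1 lost it in WT without day 2 replicate 2 (0.67, adjusted p = 0.26, edgeR) or day 6 replicate 1 (0.86, 0.19), in W330R without day 2 replicate 1 (1.55, 0.051) or replicate 2 (1.35, 0.061), and in W330R-R181E without day 2 replicate 2 (0.71, 0.2) or day 6 replicate 2 (1.01, 0.11). Cnn1 lost it in 2 of 4 fits in WT, all 4 in W330R and 3 of 4 in W330R-R181E, with adjusted p up to 0.2. Des lost it in W330R-R181E in 3 of 4 fits (log2 1.99 to 2.35, adjusted p up to 0.087), and Tpm2 in W330R without day 6 replicate 1 (1.27, 0.052).

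Other genes of contractile cells were called in the same 2 steps. Over all tested genes, 24.4% fell to day 2 in WT and 23% in W330R. The share that rose from day 2 to day 6 was 14.8% in WT, 13.6% in W330R and 12.9% in W330R-R181E. Of 13 non-muscle counterparts, such as the cytoplasmic actins and non-muscle myosins, all 13 fell to day 2 in WT and 12 in W330R. From day 2 to day 6, 10 of them rose in WT, 13 in W330R and 10 in W330R-R181E. Actb, cytoplasmic β-actin, fell by 0.91 on the log2 scale in WT to day 2, and Actg1, cytoplasmic γ-actin, fell by 1.43. Among 22 tested other smooth muscle structural and focal adhesion genes, 11, 13 and 12 rose from day 2 to day 6 in WT, W330R and W330R-R181E and none fell. In WT, the visceral actin Actg2 rose by 3.32 ± 0.787 (log2), Pgm5, which encodes the adhesion protein aciculin, by 3.04 (± 0.663) and Ldb3, a Z-disc protein gene, by 2.97 ± 0.52. The Actg2 rise starts near the floor, from 0.151 and 0.246 CPM on day 2, where 3 counts are 0.2265 and 0.1476 CPM. By day 6 Actg2 was at 3.06 and 1.17 CPM, so that the size of its rise is uncertain. Among 12 tested regulators of contraction, 4 rose and none fell from day 2 to day 6 in WT. In W330R 4 rose and 1 fell, and in W330R-R181E likewise. Mylk, the kinase that phosphorylates the myosin light chain, rose in WT by 1.32 ± 0.213.

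Most fibroblast markers also fell to day 2 and rose to day 6. In their sum over 8 genes, undifferentiated libraries lay at 8714.5 to 10906.6 CPM, day 2 libraries at 439.9 to 1098.7 CPM and day 6 libraries at 3467.3 to 5827.4 CPM. Of the 8, 5 fell and 1, Pdgfra, rose to day 2 in each genotype, and 5, 6 and 6 rose from day 2 to day 6 in WT, W330R and W330R-R181E. The shares over all genes in these steps are given above. Their part in the course of the contractile genes was not tested, and in such bulk samples fewer cells of a type and less RNA per cell cannot be told apart. Skeletal muscle markers stayed low, with Myod1, Myf5 and Ckm at 0 in all 22 libraries and a sum over 10 genes of 0.59 to 3.78 CPM. The sum of 8 cardiac markers was 1.68 to 20.6 CPM and that of 8 endothelial and blood markers 5.31 to 26.9 CPM, with Cdh5 at 0 in 15 libraries.

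No change of Srf was called between stages. Srf ranged from 38.9 to 93.9 CPM, and its log2 change from day 2 to day 6 was 0.65 ± 0.283 in WT, 0.69 ± 0.282 in W330R and 0.63 ± 0.283 in W330R-R181E, with adjusted p from 0.091 to 0.12 (edgeR). Mkl2 fell to day 2 in WT (by 0.71) and W330R (by 1.05 on the log2 scale), and Mkl1 fell by 0.56 in WT. Of 10 Srf regulators tested, 2 rose and 3 fell to day 2 in WT, beside 26.5% and 24.4% of all genes, so that these counts lay near the share. Myocd rose from day 2 to day 6 in W330R-R181E (adjusted p = 0.0099), from 0.164 and 0 CPM to 1.6 and 1.08 CPM. In WT, 1 of the 10 regulators rose and 1 fell from day 2 to day 6, beside 14.8% and 11.8% of all genes, again near the share. Klf4, a repressor of smooth muscle genes, rose by 1.34 ± 0.319 in WT over these days, and Hey2, a Notch effector, fell by 1.31 on the log2 scale. Of 23 tested TGF-β pathway genes, 9 rose and 2 fell from day 2 to day 6 in WT, beside 14.8% and 11.8% of all genes. Thbs1, which encodes the matrix protein thrombospondin, rose by 2.91 ± 0.831.

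W330R against WT asks what the PWWP substitution changed. Averaged over the 4 stages, 4 of the 10 genes were higher in W330R (Tpm2, Myl9, Lmod1 and Smtn) and 1 was lower (Des), beside 11.2% of all tested genes higher and 11.8% lower. The median log2 difference of the 10 genes was 0.55, beside 0.01 over all genes. Each average takes libraries of different days as independent. Yet replicate 1 minus replicate 2 of Des was -1.35, -1.18 and -1.16 (log2) on days 2, 4 and 6 in WT. In W330R it was 0.54, -0.04 and 0.26. Where same-numbered libraries of a genotype deviate alike, standard errors and adjusted p of the averages are too small. Leaving out 1 library or a block common to all genotypes does not address this. Tpm2 was higher by 1.34 ± 0.187 on the log2 scale (2.53-fold, adjusted p = 4e-04, edgeR), Myl9 by 1.23 ± 0.355 (0.023), Lmod1 by 0.79 ± 0.205 (0.014) and Smtn by 0.67 ± 0.196 (0.024). Des differed by -0.93 ± 0.302 (0.525-fold, adjusted p = 0.039). Cald1 (0.40 ± 0.172, adjusted p = 0.11), Acta2 (0.42 ± 0.343, 0.42) and Tagln (0.08 ± 0.157, 0.78) did not pass. Over days 2 to 6 alone, an average added after the data were seen, Cald1 passed as well (0.58 ± 0.199, adjusted p = 0.04), which gave 5 higher and 1 lower beside 14.3% and 14.8% of all genes, and Tpm2 differed by 1.82 ± 0.22.

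**Figure D3:**
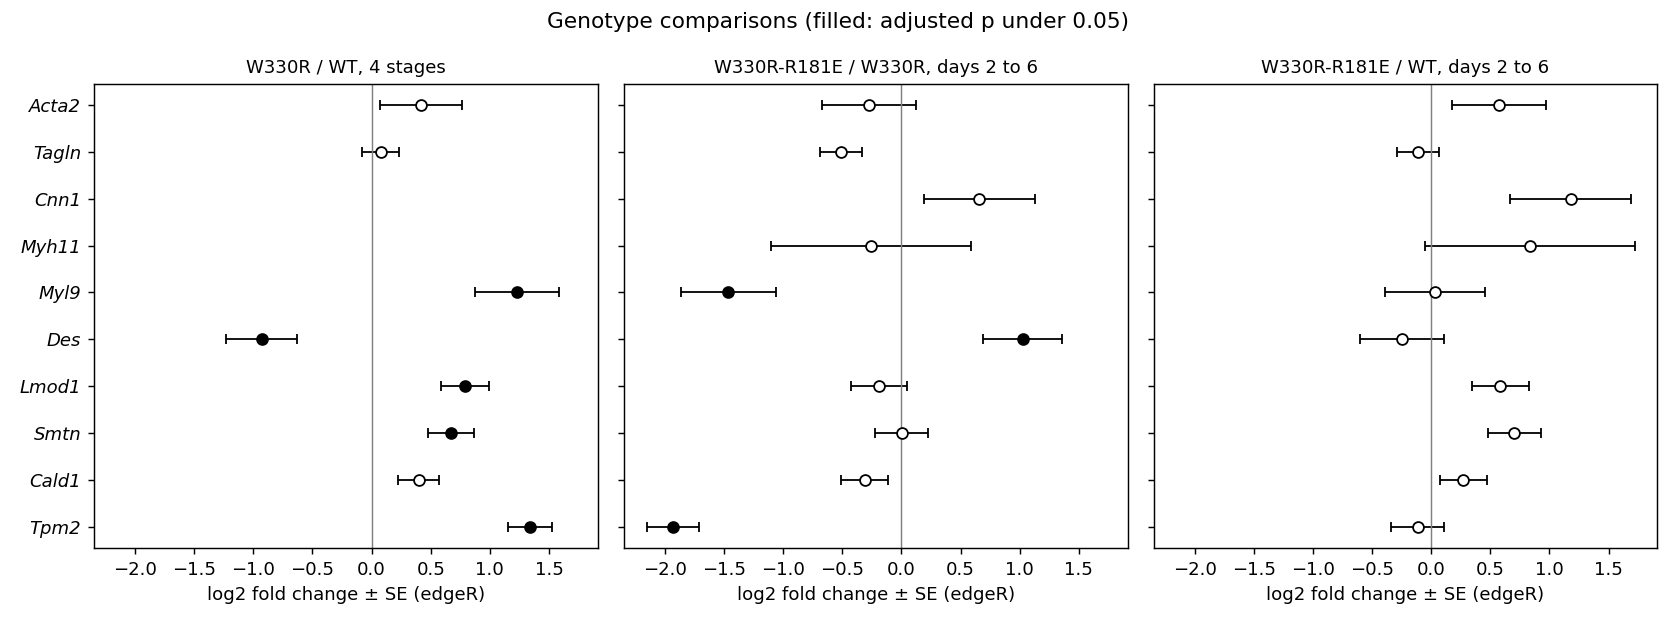
Log2 fold change (points, with bars of 1 standard error) of the 10 genes between genotypes, from the edgeR fit of all 22 libraries, with filled points at an adjusted p under 0.05. Cnn1 and Myh11 are left out of the first panel because both were at 0 in undifferentiated cells. Tpm2 and Myl9 were higher in W330R than in WT and lower in W330R-R181E than in W330R, Des the reverse, and no gene was called between W330R-R181E and WT.

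Leaving out each of the 16 libraries in turn kept the calls of Tpm2 (1.22 to 1.499) and Lmod1 (0.60 to 1.11) in every fit. Smtn lost its call in 4 fits (0.55 to 0.77 over all 16, adjusted p up to 0.072, edgeR), Myl9 in 8 (1.00 to 1.67 over all 16, up to 0.063) and Des in 12 (-1.08 to -0.56 over all 16, up to 0.45). The number of genes called was 2 without WT undifferentiated replicate 1 or without WT day 6 replicate 2. It was 3 without WT undifferentiated replicate 2, WT day 2 replicate 2, WT day 4 replicate 2, W330R undifferentiated replicate 1, W330R day 2 replicate 2, W330R day 4 replicate 2 or W330R day 6 replicate 1. Des was the closest to the threshold, and its difference was -0.555 without WT day 2 replicate 2.

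**Figure D4:**
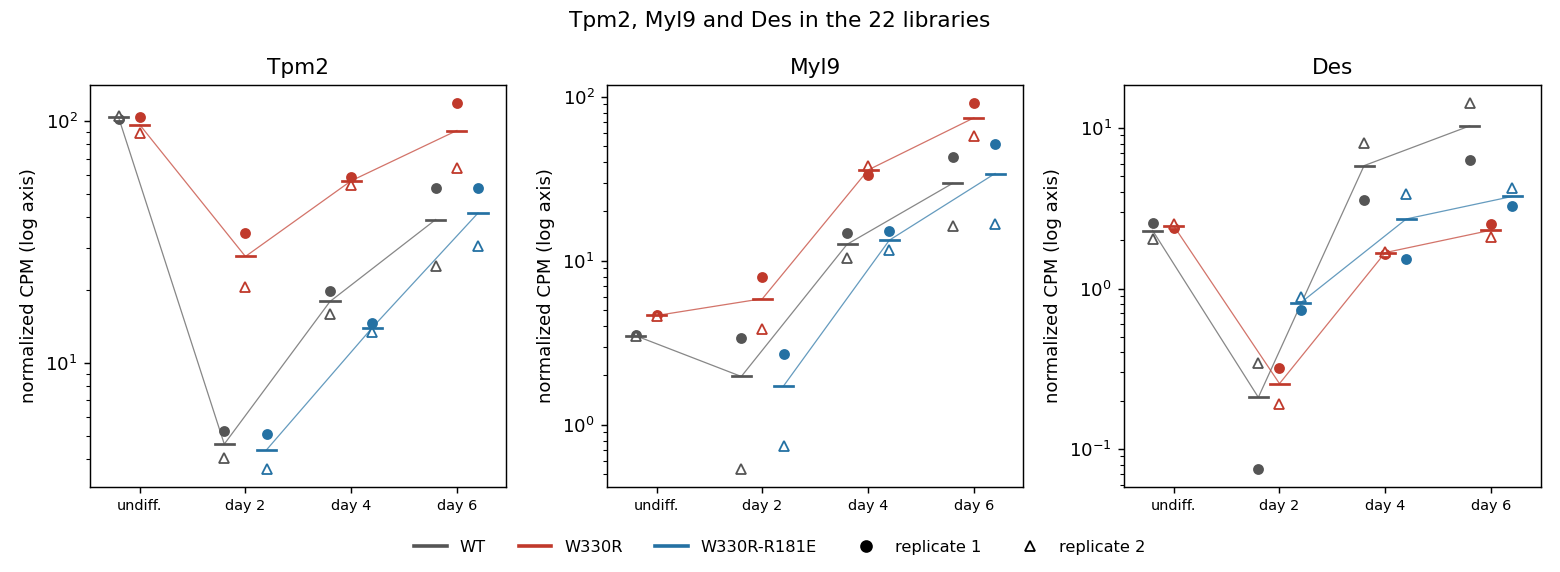
Normalized CPM (log axis) of Tpm2, Myl9 and Des in the 22 libraries, by stage. Circles are replicate 1, triangles replicate 2, bars the mean of the 2 libraries, thin lines join the means of a genotype, and colours are the genotypes. Tpm2 in W330R lay above WT and W330R-R181E from day 2 on, and Des in WT rose to 6.35 and 14.3 CPM on day 6.

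Tpm2 carried the clearest genotype difference. No difference was called in undifferentiated cells, with 102.3 and 104.8 CPM in WT and 103.9 and 89.2 CPM in W330R (-0.10 ± 0.358, adjusted p = 0.99, edgeR). On day 2 WT had 5.21 and 4.03 CPM, W330R 34.4 and 20.7 CPM and W330R-R181E 5.09 and 3.66 CPM. On day 4 the values were 19.9 and 16 CPM in WT, 58.8 and 54.4 in W330R and 14.6 and 13.4 in W330R-R181E. On both days every W330R library lay above every library of the other genotypes, while WT and W330R-R181E lay close together. On day 6 the pairs were 53.1 and 25.2 CPM in WT, 118.5 and 64.2 in W330R and 52.9 and 30.4 in W330R-R181E, still without overlap of W330R with the others. W330R exceeded WT by 2.58 ± 0.405 (5.99-fold, adjusted p = 0.0072) on day 2, 1.66 ± 0.374 (0.023) on day 4 and 1.23 ± 0.363 (0.055) on day 6. The day 2 call was lost without WT day 2 replicate 2 (2.41, adjusted p = 0.11) and the day 4 call without WT day 4 replicate 2 (1.51, 0.26) or either W330R day 4 library (1.64, 0.11 and 1.74, 0.08).

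The Tpm2 promoter is shown because Tpm2 differed most between genotypes and because DNMT3A methylates CpG sites, and that of Des because Des went the other way. In the 250 bases before the start (RefSeq, GRCm38.p6), at chr4:43523555-43523804 (minus strand) and chr1:75360042-75360291 (plus strand), capitals mark CpG.
Tpm2: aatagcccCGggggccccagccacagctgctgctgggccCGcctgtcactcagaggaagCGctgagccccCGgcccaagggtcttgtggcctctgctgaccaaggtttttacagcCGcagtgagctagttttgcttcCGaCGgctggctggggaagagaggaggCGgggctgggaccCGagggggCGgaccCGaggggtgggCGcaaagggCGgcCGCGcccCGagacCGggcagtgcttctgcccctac
Des: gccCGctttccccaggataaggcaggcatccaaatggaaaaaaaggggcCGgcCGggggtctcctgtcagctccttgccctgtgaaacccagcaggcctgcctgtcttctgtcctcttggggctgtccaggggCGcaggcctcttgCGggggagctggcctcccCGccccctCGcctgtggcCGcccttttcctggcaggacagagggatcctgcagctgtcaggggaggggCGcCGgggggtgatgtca
These stretches hold 17 and 10 CpG. In the 300-base windows, Tpm2 and Myl9 had 20 CpG each, more than 73.5% of all windows, Des and Smtn 11, Lmod1 7, Acta2 and Cnn1 6, and the 2 starts of Cald1 6 and 5, against a median of 7 over all windows. DNA methylation was not analysed here.

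Myl9, Lmod1 and Smtn were higher in W330R by smaller steps. Myl9 on day 4 was 14.8 and 10.4 CPM in WT, 33.5 and 38.1 in W330R and 15.1 and 11.6 in W330R-R181E. W330R lay apart from the other genotypes on that day, and on day 6, with the values given above, also. Lmod1 on day 4 was 9.89 and 10.4 CPM in WT, 16.2 and 26.9 in W330R and 17.6 and 16.8 in W330R-R181E, so that both mutants lay above WT. Smtn on day 4 was 45.9 and 52.8 CPM in WT, 74.9 and 105.9 in W330R and 75.8 and 76.4 in W330R-R181E, with the same order. At single days edgeR called none of the 3 genes, with adjusted p of 0.19, 0.11 and 0.2 on day 4, while DESeq2 called Lmod1 on day 4 (1.07 ± 0.374, adjusted p = 0.037).

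Des was the member that went down. Both genotypes held 2.05 to 2.55 CPM undifferentiated. On day 2 WT had 1 and 7 counts (0.0755 and 0.344 CPM), W330R 6 and 5 counts (0.321 and 0.19 CPM) and W330R-R181E 9 and 18 counts (0.739 and 0.891 CPM). On day 4 WT reached 3.54 and 8.13 CPM, W330R 1.65 and 1.7 CPM and W330R-R181E 1.52 and 3.91 CPM. On day 6 the levels were 6.35 and 14.3 CPM in WT, 2.53 and 2.09 in W330R and 3.28 and 4.22 in W330R-R181E. WT lay above both mutants on day 6, and above W330R on day 4. W330R differed from WT by -1.80 ± 0.541 (adjusted p = 0.064, edgeR) on day 4 and by -2.15 ± 0.533 (0.225-fold, adjusted p = 0.026) on day 6. Des rose from day 2 to day 6 by 5.47 ± 0.676 in WT, 3.18 ± 0.627 in W330R and 2.17 ± 0.577 in W330R-R181E on the log2 scale, and the WT value rests on the 8 counts of day 2. The day 6 difference lost its call without WT day 6 replicate 2 (-1.47, 0.35), W330R day 6 replicate 1 (-2.27, 0.14) or replicate 2 (-2.01, 0.2).

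At each stage the number of genes called was small. On day 2 and on day 4 Tpm2 was the only member called between W330R and WT, in the direction of W330R, beside 1.88% of all genes higher and 1.18% lower on day 2 and 2.73% and 3.4% on day 4. On day 6 Des was the only one, beside 2.31% higher and 5.23% lower, and Tagln (0.97 ± 0.3, adjusted p = 0.067, edgeR) and Tpm2 (adjusted p = 0.055) did not pass. DESeq2 called both on day 6 (adjusted p = 0.044 and 0.014), and Des (0.019) and Lmod1 (0.037) on day 4, in addition to the genes that edgeR called. In undifferentiated cells edgeR called none of the 10 (0.792% higher and 0.957% lower over all genes), 1 gene (Tagln) had an unadjusted p under 0.05, and DESeq2 called none. A fit of the 4 undifferentiated libraries alone, whose replicates were much closer, called 4: Acta2 lower in W330R (-0.86 ± 0.0338, adjusted p = 2.3e-06), Cald1 lower (-0.15 ± 0.0314, 0.0072), Lmod1 higher (0.85 ± 0.191, 0.011) and Smtn higher (0.58 ± 0.0659, 0.00041). The share of all genes called in that fit is not at hand, and the shares above belong to the fit of all 22 libraries. The 4 calls therefore cannot be set against a background. Acta2 thus lay below WT in both undifferentiated W330R libraries, overlapped with WT on day 2 and lay above it on days 4 and 6, without a call at those days.

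The effect of W330R on Tpm2 differed between differentiating and undifferentiated cells. An interaction added after the data were seen, the mean W330R effect on days 2 to 6 minus that in undifferentiated cells, was 1.92 ± 0.424 (log2, adjusted p = 0.015, edgeR) for Tpm2. It did not pass for Tagln (1.28 ± 0.378, 0.058), Acta2 (1.72 ± 0.796, 0.23), Des (-1.37 ± 0.658, 0.25) or Cald1 (0.75 ± 0.397, 0.31), beside 3.82% of all genes called higher and 2.91% lower. The change from day 2 to day 6 was called different between W330R and WT for none of the 10 (3 had an unadjusted p under 0.05, and DESeq2 called none), beside 0.0207% and 0.0689% of all genes. Between W330R-R181E and W330R it was called for none either (2 unadjusted, DESeq2 none), beside 0% and 0%. Such tests have little room here, since 2 libraries enter each of 4 conditions.

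W330R-R181E against W330R asks what the second substitution added, and W330R-R181E against WT what remained. Averaged over days 2 to 6, Tpm2 was lower in W330R-R181E than in W330R by 1.93 on the log2 scale (-1.93 ± 0.221, 0.262-fold, adjusted p = 7.2e-05, edgeR) and Myl9 differed by -1.46 ± 0.404 (0.363-fold, 0.023), while Des was higher by 1.03 ± 0.332 (2.04-fold, 0.048). These were 2 genes lower and 1 higher of 10, beside 9.36% and 7.87% of all genes, with a median of -0.26 beside 0.01. The Des difference was 1.69 ± 0.657 on day 2, with 9 and 18 counts in W330R-R181E against 6 and 5 in W330R. It was 0.70 ± 0.536 on day 4 and 0.68 ± 0.525 on day 6, and no single day was called. Over days 2 to 6, Tagln differed by -0.51 ± 0.177 (0.061). Lmod1 (-0.19 ± 0.235), Smtn (0.00 ± 0.224, from 0.002), Cald1 (-0.31 ± 0.198) and Acta2 (-0.27 ± 0.396) did not pass. The comparison shares its W330R libraries with that of W330R against WT, so that opposite directions in both are not independent of each other.

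Against WT, edgeR called none of the 10 genes in W330R-R181E, beside 4.46% of all genes higher and 5.12% lower, while 3 had an unadjusted p under 0.05 (Smtn, Lmod1 and Cnn1) and DESeq2 called 1, Smtn (0.70 ± 0.232, adjusted p = 0.023). Without WT day 2 replicate 1, WT day 6 replicate 1, W330R-R181E day 2 replicate 1 or W330R-R181E day 6 replicate 2, edgeR called 1 gene. In edgeR Smtn differed by 0.70 ± 0.227 (0.065) and Lmod1 by 0.58 ± 0.242 (0.14), the direction they had in W330R. Tpm2 differed from WT by -0.11 ± 0.224, Myl9 by 0.04 ± 0.423 (0.035) and Des by -0.25 ± 0.353 on the log2 scale. The Des average joins days of opposite direction. On day 2 W330R-R181E held 0.739 and 0.891 CPM of Des, above the 0.0755 and 0.344 CPM of WT. On day 6 it held 3.28 and 4.22 CPM, below the 6.35 and 14.3 CPM of WT. A missing call does not show that the levels were equal, and the standard error of Myl9 exceeded its difference. On single days, Tpm2 was lower in W330R-R181E than in W330R on day 2 (-2.67 ± 0.409, adjusted p = 0.0038) and day 4 (-2.01 ± 0.378, 0.017), beside 1.7% of genes lower and 0.964% higher on day 2 and 1.35% and 0.565% on day 4. On day 6 none of the 10 was called (0.937% lower, 0.565% higher), 2 had an unadjusted p under 0.05, Tpm2 differed by -1.12 ± 0.362 (0.15), and DESeq2 called Tagln (-1.06 ± 0.35, 0.048).

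With 1 of the 12 libraries left out, Tpm2 stayed lower in W330R-R181E than in W330R in every fit (-2.09 to -1.78). Myl9 lost its call in 5 fits, and the number of genes called fell to 1, without W330R day 2 replicate 1, W330R day 6 replicate 1, or replicate 2 of W330R-R181E on day 2, day 4 or day 6 (-1.41 to -1.20 in those, adjusted p of 0.055 to 0.075, edgeR). Des lost its call in 11 of the 12 fits (0.73 to 1.15 in those, adjusted p up to 0.17). The day 4 call of Tpm2 was lost without W330R day 4 replicate 1 (-1.98, 0.12) and without either W330R-R181E day 4 library (-2.10, 0.15 and -1.96, 0.11).

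Beside the members, genes of the other lists were called between genotypes as follows. Over all tested genes, 11.2% were higher and 11.8% lower in W330R than in WT over the 4 stages. In W330R-R181E against W330R over days 2 to 6, 7.87% were higher and 9.36% lower. Counts near these shares, as for contraction regulators and TGF-β genes in W330R, are no result about a list. Of the 22 structural and focal adhesion genes, 8 were higher and 1 lower in W330R than in WT over the 4 stages, and 1 was higher and 7 lower in W330R-R181E than in W330R. Synpo2, an actin-bundling protein of Z-discs and stress fibres, had the largest difference of those called in both, with 1.59 ± 0.224 and -2.08 ± 0.25 on the log2 scale. Of the 13 non-muscle counterparts, 6 were higher in W330R and 5 lower in W330R-R181E than in W330R, and none went the other way. Cnn2, non-muscle calponin, differed by 0.66 ± 0.208 and -0.75 ± 0.24, whereas Actb (0.18 ± 0.113) and Actg1 (-0.05 ± 0.0939) did not pass in W330R against WT. Among 12 contraction regulators, 2 were higher and 2 lower in W330R, and none was higher and 3 lower in W330R-R181E than in W330R. Ppp1r12b, a myosin phosphatase subunit, was higher by 0.66 ± 0.0623 in W330R and differed by -0.98 ± 0.0724 in W330R-R181E against W330R, and the calcium channel gene Cacna1c by -2.62 ± 0.285 in the latter. Of 10 Srf regulators, 1 was higher and 2 lower in W330R, near the share. Hey2 was lower in W330R by 1.38 (-1.38 ± 0.229) and Klf4 higher by 0.54 ± 0.155. Srf (0.11 ± 0.141), Mkl2 (-0.02 ± 0.0911), Mkl1 (0.19 ± 0.0967) and Myocd (0.56 ± 0.499) did not pass. In W330R-R181E against W330R, 1 of these 10 was higher and 2 lower, and Mkl1 differed by -0.54 ± 0.112 (adjusted p = 0.0048, edgeR). Of 23 TGF-β pathway genes, 3 were higher and 2 lower in W330R, and none was higher and 7 lower in W330R-R181E than in W330R.

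Markers of other fates were called in the same comparisons. Over all genes, 14.8% were lower in W330R than in WT over days 2 to 6 and 11.8% over the 4 stages. In W330R-R181E, 7.87% were higher and 9.36% lower than in W330R, and 5.12% were lower than in WT. Summed over 10 adipocyte markers, WT libraries of days 2 to 6 lay at 3987.4 to 10568.3 CPM, W330R libraries at 1876 to 3121.1 CPM and W330R-R181E libraries at 2279.8 to 5276 CPM. Of the 10, 8 were lower in W330R than in WT over days 2 to 6, 4 over the 4 stages, and none higher in either, among them Cebpa, an adipogenic transcription factor (-1.86 ± 0.161), and none was at 0 in all libraries. In W330R-R181E, 5 were higher and 1 lower than in W330R, and 4 lower and none higher than in WT. Adipoq, which encodes the adipocyte hormone adiponectin, stood on day 6 at 753.5 and 1295.9 CPM in WT, 272.5 and 298.7 in W330R and 339.4 and 453 in W330R-R181E. Summed over 7 pericyte markers, libraries lay at 194.2 to 759.1 CPM. Of the 5 tested, 1 was higher and 1 lower in W330R than in WT over the 4 stages. Of 8 fibroblast markers, 2 were higher there and none lower, beside 11.2% of all genes higher. In W330R-R181E against W330R, 2 were higher and 2 lower in each of these 2 lists. Chondrocyte and osteoblast markers, summed over 9 genes, differed between replicates in WT and W330R-R181E and between genotypes. Of the 6 tested, 2 were higher and 2 lower in W330R-R181E than in W330R. On day 6 the sum was 2209.2 and 506.5 CPM in WT, 840.6 and 878.1 in W330R and 5248.4 and 1618.3 in W330R-R181E, and Col2a1, cartilage collagen, alone was at 1691.7 and 235.2, 390.6 and 384.9, and 4467.5 and 1094.3 CPM. Replicate 1 also held more Acta2 than replicate 2 on each of days 2, 4 and 6 in WT and in W330R-R181E, and Des was lower in replicate 1 in all 6 of these pairs. The part of these markers in the differences of the contractile genes was not tested.

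The 10 genes did not vary as 1 block. Over the 22 libraries, Pearson's correlation of log2 CPM was 0.893 between Acta2 and Cald1, 0.875 between Myl9 and Lmod1, 0.859 between Acta2 and Tpm2 and 0.852 between Cald1 and Tpm2. It was 0.743 between Tagln and Myl9 and 0.718 between Cnn1 and Myl9. These values describe 22 libraries that share stages, genotypes and depth. Myh11 correlated with none of the others above 0.429. With the mean of the 10 standardised genes, Lmod1 (0.948) and Myl9 (0.922) correlated the most and Myh11 (0.196) the least. Of 11148 other genes, those closest to that mean included Cplx2 (0.96), Syde1 (0.958), Ccdc102a (0.951) and Gstt1 (0.942).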

How the data were processed

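Total RNA of C3H 10T1/2 cells was extracted with TriZol, and libraries were made with the NEBNext Ultra II kit. The authors deposited 1 table of expected counts per gene symbol for all 22 libraries, not normalized, with whole numbers as values. The submitters' processing notes name kallisto, DESeq2 1.40 and GRCm39 without their roles. The counts were rounded to whole numbers. Low genes were removed with filterByExpr, at a count of at least 10 and a total of at least 15. Libraries were normalized by TMM and fitted, with edgeR 4.0.16 under R 4.3.3, by 1 quasi-likelihood model with a mean per condition (11 residual degrees of freedom). There were 17 contrasts, adjusted by Benjamini-Hochberg over 14520 genes, and 2 were added later. Samples were grouped by the genotype, stage and replicate number in their labels. The alternatives were DESeq2 1.42.0, RLE normalization, no filter, a fit restricted to the conditions compared, a block for the replicate number, and leaving out each library. The fit was tested on simulated counts. These had independent libraries and the same spread of a gene in all conditions, unlike the replicate pairs here, so that nothing is concluded from them. The 10 genes, the marker and pathway lists and the rule for named genes (up to 3 called genes per list and contrast by size of change, at a mean log2 CPM of at least 1, and Srf, its cofactors, Actb and Actg1 always) were chosen with earlier results of these data known. Adipoq, Col2a1 and genes sharing sequence with a member were named after their values were seen. Older symbols in the table (Mkl1, Mkl2) were matched to current names. Promoters come from RefSeq on GRCm38.p6 and exon lengths from GENCODE M21, both of an earlier build than the GRCm39 named in the notes. Some genes that the rule would name are not reported here.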

Additional observations from a re-analysis of the deposited data

Results flagged for a closer look

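The effect of W330R on Tpm2 over days 2 to 6 differed from that in undifferentiated cells by 1.92 ± 0.424 on the log2 scale (adjusted p = 0.015, edgeR, a contrast added after the data were seen). It drew attention because the same contrast of genotypes gave different effects at different stages: -0.10 ± 0.358 undifferentiated and 1.82 ± 0.22 over days 2 to 6, where W330R lay above WT in 3 of 3 days in both libraries. The undifferentiated columns are named by another pattern, so that a batch and the stage cannot be told apart. None of the alternative fits was run on this added contrast.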

How the results depend on the processing

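Of the 45 calls of a member in 1 of the 17 contrasts, 45 kept their direction and passed under DESeq2, RLE, no filter on low counts and the replicate block, and none reversed under any alternative run. A fit restricted to the conditions compared, which holds fewer libraries, kept 32 of 44, and fits without 1 library kept 195 of 264. The 2 contrasts added later were not run under any of these alternatives. The number of members called changed as follows. For W330R-R181E against WT over days 2 to 6 it was 0, and 1 with no filter, DESeq2 or the replicate block. For W330R against WT it went from 1 to 3 under DESeq2 and the replicate block and to 2 with no filter, on day 4 and on day 6 alike. The replicate block added Des (adjusted p = 0.032) and Myl9 (0.037) on day 4 and Tpm2 (0.0046) and Tagln (0.04) on day 6 for that comparison. For W330R-R181E against W330R it added Tagln (0.042) over days 2 to 6 and Tpm2 (0.02) on day 6. For W330R against WT in a restricted fit the number was 0 on days 2, 4 and 6, and 4 in undifferentiated cells. For W330R-R181E against W330R it was 0 on days 2 and 4 in such a fit, and 1 on day 6 under DESeq2 or the replicate block. For day 6 against day 2 in W330R-R181E it was 2 in a restricted fit. With each library left out, the number ranged from 2 to 6 for W330R against WT over the 4 stages, 1 to 3 for W330R-R181E against W330R, 0 to 1 for W330R-R181E against WT, 0 to 1, 0 to 2 and 0 to 2 for W330R against WT on days 2, 4 and 6, 0 to 1 for W330R-R181E against W330R on day 4, 5 to 6 for day 2 against undifferentiated cells in WT, 5 to 7 and 6 to 7 for day 6 against day 2 in WT and W330R, and 4 to 6 for day 6 against day 2 in W330R-R181E. For day 2 against undifferentiated cells the number was 6 in place of 5 in each genotype under DESeq2 and no filter, and 4 in WT and 6 in W330R in a restricted fit. For day 6 against day 2 in WT it was 5 in place of 7 in a restricted fit. The cause of these shifts was not tested. Replicate numbers come from the labels and were not shown to pair samples: deviations of same-numbered libraries correlated at -0.0665 to 0.534, with a mean of 0.215 within days 2 to 6 and -0.0139 between undifferentiated cells and later days, and 27 of 55 pairs of conditions exceeded 0.1. Motif counts in members were alike in the 250 bases before the start, except CANNTG (8 of 8 members, and 6 in the shorter window). Cnn1 was at or under 3 counts in 10 libraries and Myh11 in 7.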
